A study of Mus musculus with 2 samples.

Results

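The replication-dependent histone genes of the mouse were examined for antibody-directed cleavage by chromatin immunocleavage sequencing (ChIC-seq) of the transcription factor TCF-1 in lymphoid tissue inducer (LTi) cells. The genes were chosen by symbol among the protein-coding genes of the RefSeq table for GRCm38.p6, the mm10 build, and numbered 71 of 21887. They carry a current symbol that begins with H1f, H2ac, H2bc, H3c or H4c and a number (67 genes), or had an older symbol that begins with Hist1h, Hist2h, Hist3h or Hist4h and now bear another name (4 genes: H2aw, H2bu2, H4f16 and H4bc24). Islands, the regions of clustered reads that the authors called with SICER, were assigned to a gene where they overlapped the gene or 1 kb on either side by at least 1 bp. By that rule 43 of the 19531 deposited islands lay at histone genes.

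In ChIC-seq an antibody carries micrococcal nuclease to a chromatin-bound protein in fixed cells, and the released DNA fragments are sequenced. The series holds 2 libraries of 500 cells each from C57BL/6 mice, sorted as lineage-negative, CD127-positive, CCR6-positive cells without KLRG1, NK1.1 and NKp46. The cells of 1 library were Tcf7fl/fl-VavCre, sorted from small intestinal lamina propria, and those of the other were Tcf7+/+, sorted from Peyer's patches. Cre driven by Vav acts in blood-forming cells at large, so LTi cells are not its only target. Genotype and tissue differed together, with 1 library per group, and their parts in any difference cannot be told apart.

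The deposited table gives each island a read count in a peak library and in a control library without naming either sample. Every value below therefore sets the peak library against the control library, not a genotype against the other, and no replicate check exists. Folds are peak reads over control reads after the control was multiplied by 1.997, the library factor contained in the authors' own fold column. All intervals are exact 95% intervals that cover counting error only. Whether PCR copies of a molecule were removed is not given in the sources used here, and any that were kept count as separate reads. Over all islands the peak library held 483771 reads and the control library 189291. All 9 listed marker genes of LTi cells and other type 3 innate lymphoid cells had an island, against 47.5% of all protein-coding genes. The counts were 3 of 5 for B cell markers and 2 of the 4 T cell markers in the gene table, near that share. They were 1 of 4 for epithelial, 1 of 4 for NK and ILC1 and 0 of 3 for myeloid markers. These lists are too short to show which cells were present. The part of other cells in the values below was not tested.

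Histones package DNA into nucleosomes: H2A, H2B, H3 and H4 form the core, and linker histone H1 binds the DNA that enters and leaves it. The replication-dependent genes supply most of these proteins in S phase, are short and without introns in their usual form, and give mRNAs that end in a stem-loop in place of a poly(A) tail. TCF-1 is an HMG-box factor of the TCF/LEF family that recognises a short core, CTTTGA, and is encoded by Tcf7. Mouse histone genes lie in a large cluster on chromosome 13 (older name Hist1, 54 of the 71 genes), smaller ones on chromosomes 3 (Hist2, 10 genes) and 11 (Hist3, 2 genes), and a lone gene on chromosome 6 (Hist4, H4f16). The other 4 genes, H1f0, H1f7, H1f8 and H1f10, carry H1 symbols but lie outside the clusters. They are known as replication-independent or germ-cell H1 genes, so the description "replication-dependent" does not hold for them. Within the chromosome 13 cluster, H1f6, H2bc1 and H2ac1 are known for expression in the testis.

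The promoters below are the RefSeq sequences of GRCm38.p6, limited to bases before the gene start and written 5′ to 3′ on the strand of the gene. The first 4 are shown for what their islands were: H2bc11 and H4c9 share the histone island with the lowest p of the exact test, H1f3 has the island with the lowest fold, and H2ac20 shares the island with the most peak-library reads. H2bc11 and H2ac20 are shown with the whole gap to the gene they are paired with. Capitals mark the motifs searched, on either strand: the TCF/LEF core, the octamer, the CCAAT box, the TATA box and an element of H4 promoters, whose letters are given with their shares.
H2bc11, chr13:22042950-22043197, plus strand: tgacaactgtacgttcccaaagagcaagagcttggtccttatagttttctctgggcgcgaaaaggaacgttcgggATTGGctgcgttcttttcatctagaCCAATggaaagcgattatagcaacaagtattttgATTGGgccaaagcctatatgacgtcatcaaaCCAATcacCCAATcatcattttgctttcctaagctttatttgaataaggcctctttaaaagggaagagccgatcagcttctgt
H4c9, chr13:22041363-22041562, minus strand: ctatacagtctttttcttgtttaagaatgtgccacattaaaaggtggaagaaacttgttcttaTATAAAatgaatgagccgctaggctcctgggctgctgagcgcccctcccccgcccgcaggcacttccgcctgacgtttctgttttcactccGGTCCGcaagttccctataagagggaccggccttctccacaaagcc
H1f3, chr13:23554832-23555031, plus strand: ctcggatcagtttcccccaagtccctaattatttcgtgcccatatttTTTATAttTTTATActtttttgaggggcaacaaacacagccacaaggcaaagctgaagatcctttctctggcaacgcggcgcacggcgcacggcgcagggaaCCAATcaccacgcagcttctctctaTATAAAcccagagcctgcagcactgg
H2ac20, chr3:96220881-96221071, minus strand: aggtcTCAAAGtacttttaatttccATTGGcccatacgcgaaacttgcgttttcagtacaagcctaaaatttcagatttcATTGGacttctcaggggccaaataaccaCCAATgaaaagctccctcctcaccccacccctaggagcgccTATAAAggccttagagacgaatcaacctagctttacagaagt

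The next 4 are 2 pairs of H4 promoters that share a long run of bases within the pair. They are shown because both genes of the first pair, H4c11 and H4c12, had an island and both genes of the second, H4c17 and H4c18, had none. Capitals mark the run of identical bases within the printed part, 64 bases for H4c11 and H4c12 and 149 bases for H4c17 and H4c18.
H4c11, chr13:21734834-21735033, plus strand: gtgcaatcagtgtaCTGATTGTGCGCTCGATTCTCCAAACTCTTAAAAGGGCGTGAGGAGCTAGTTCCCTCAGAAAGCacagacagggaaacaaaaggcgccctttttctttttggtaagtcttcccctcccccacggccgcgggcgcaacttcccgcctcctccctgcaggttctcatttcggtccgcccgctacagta
H4c12, chr13:21750554-21750753, minus strand: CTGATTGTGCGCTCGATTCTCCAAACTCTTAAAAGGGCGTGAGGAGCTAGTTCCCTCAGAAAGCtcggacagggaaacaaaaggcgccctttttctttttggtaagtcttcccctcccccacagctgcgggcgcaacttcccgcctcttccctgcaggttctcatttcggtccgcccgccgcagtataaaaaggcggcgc
H4c17, chr13:21811596-21811745, plus strand: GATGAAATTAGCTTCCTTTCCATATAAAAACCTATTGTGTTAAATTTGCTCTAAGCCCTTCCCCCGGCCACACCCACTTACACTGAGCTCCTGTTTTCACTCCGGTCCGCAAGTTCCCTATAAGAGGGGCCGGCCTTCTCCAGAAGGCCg
H4c18, chr13:21832198-21832347, minus strand: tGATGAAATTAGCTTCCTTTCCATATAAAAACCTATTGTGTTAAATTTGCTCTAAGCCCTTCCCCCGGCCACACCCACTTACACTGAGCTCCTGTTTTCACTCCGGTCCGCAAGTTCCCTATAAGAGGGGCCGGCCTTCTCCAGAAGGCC

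By the 1 kb rule, most histone genes had an island in each of the 5 histone classes. An island was present at 56 of the 71 genes (78.9%), against 47.5% of all protein-coding genes. The genes are short, with a median length of 496 bp against 17169 bp for all protein-coding genes, and other protein-coding genes of 2000 bp or less had an island in 219 of 2520 cases (8.69%). The share at histone genes lay near those of other broadly expressed families: 73 of 85 ribosomal protein genes (85.9%) and 44 of 51 proteasome genes (86.3%). Among the 51 other protein-coding genes inside the histone spans, 8 (15.7%) had an island. None of the 36 vomeronasal receptor genes there had any, and the 8 genes were among the 15 remaining neighbours.

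**Figure D1:**
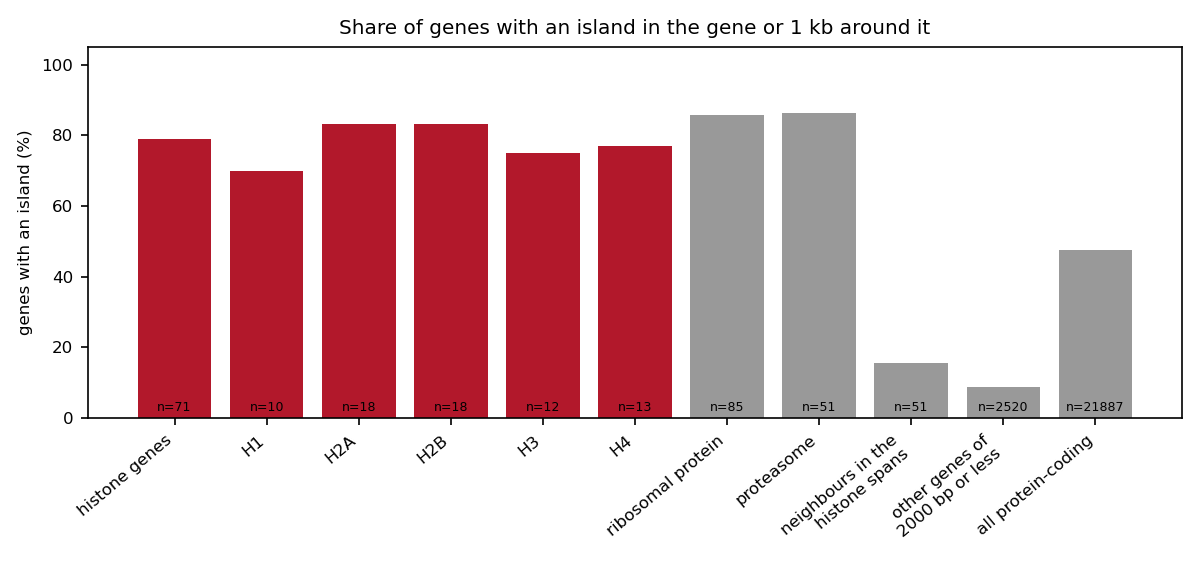
Share of protein-coding genes with at least 1 island in the gene or the 1 kb around it, in percent, for all histone genes and each class (red) and for comparison groups (grey), with the number of genes at the foot of each bar. Histone genes stand at 78.9%, near ribosomal protein genes at 85.9% and proteasome genes at 86.3%, and above other genes of 2000 bp or less at 8.69%.

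By class, an island lay at 15 of 18 H2A genes (83.3%), 15 of 18 H2B genes (83.3%), 10 of 13 H4 genes (76.9%), 9 of 12 H3 genes (75%) and 7 of 10 H1 genes (70%). By cluster it was 44 of 54 genes on chromosome 13, 8 of 10 on chromosome 3, both genes on chromosome 11, the gene on chromosome 6 and 1 of the 4 genes outside the clusters. Neighbouring genes share islands, so these counts are not independent: 23 islands lay at 1 histone gene, 15 at 2, 4 at 3 and 1 at 4. In turn 48 genes had 1 island, 5 had 2 and 3 had 3 or more. At H1f6, H3c2, H3c3, H3c6 and H3c8 the islands lay only in the 1 kb flank, so the H3 share depends most on the flank.

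The reads behind most of these islands were modest, and so was the excess of the peak library, whose direction depends on the scaling. An island at a histone gene held a median of 23 peak-library reads and 11 control-library reads. Over all 43, the 1275 peak-library reads against 508 control-library reads gave a pooled fold of 1.26 (1.13 to 1.40). The other nuclear islands of under 200 reads in the peak library, 19470 in number, had a pooled fold of 1.62 (1.61 to 1.63). That interval did not overlap the histone interval. The gap in pooled fold depends on the limit to nuclear islands of under 200 reads. Over all 19531 islands the pooled fold was 1.28 (1.27 to 1.29), inside the histone interval. Of these, 19513 were nuclear islands of under 200 reads, with 386196 of the 483771 peak-library and 119307 of the 189291 control-library reads. The few islands beyond the limit thus weigh heavily in that pooled fold. The median fold per island was 1.84 with or without them, against 1.30 at histone genes. The direction of the histone fold rests on the scaling: with the totals of all islands made equal it was 0.982, and with the totals of nuclear islands under 200 reads made equal 0.775. Scaling does not alter the order of the groups, since a common factor multiplies every fold.

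The lower fold came with more control-library reads at histone islands. They had 13.4 peak-library reads and 5.34 control-library reads per kb, where the other nuclear islands had 12 peak-library and 3.71 control-library reads per kb. Islands over the starts of other protein-coding genes matched the histone islands in the peak library, at 13.4 reads per kb. In the control library they lay between, at 4.75 reads per kb, and their pooled fold was 1.41 (1.40 to 1.43). Islands over no such start had a pooled fold of 1.80. Islands at ribosomal protein genes had a pooled fold of 1.30 (1.20 to 1.41) and those at proteasome genes 1.30 (1.16 to 1.46), both with intervals that cover the histone value. The median fold per island was 1.30 at histone genes, 1.32 at ribosomal protein genes, 1.38 at proteasome genes and 1.50 over other gene starts.

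**Figure D2:**
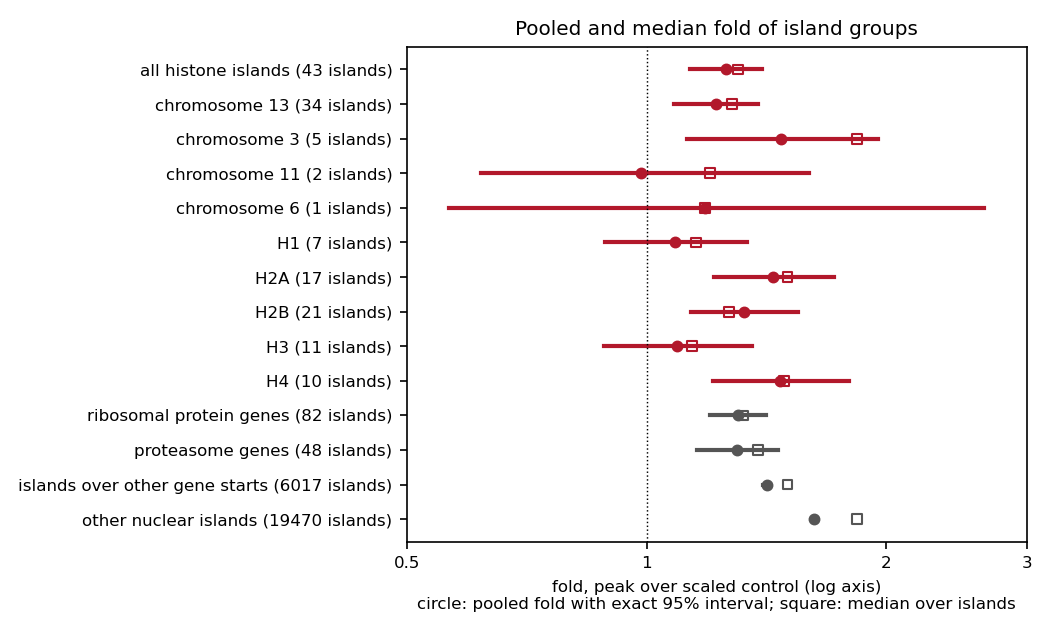
Pooled fold of the peak library over the scaled control library (circles, with exact 95% intervals) and median fold over islands (open squares) for histone islands by cluster and class (red) and comparison groups (grey), on a log axis. All histone islands stand at 1.26 against 1.62 for other nuclear islands, which are those of under 200 peak-library reads. With equal totals of all islands every circle moves down by 0.36 on the log2 scale, which puts the histone value at 0.982.

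Islands with more reads tend to have smaller folds throughout the table, so depth was compared within classes of peak-library reads. Under 20 reads, the median fold was 1.50 over 15 histone islands, 1.59 over islands at other gene starts and 2.13 over all other nuclear islands. From 20 to 39 reads it was 1.23 over 18 histone islands, 1.50 over other start islands and 1.63 over all others. At 40 reads or more it was 1.39 over 10 histone islands, 1.35 over other start islands and 1.41 over all others. Histone islands thus had the lowest of the 3 medians below 40 reads, and at 40 or more the 3 medians lay close together.

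The authors' deposited table gave an FDR of 0.05 or less to 18 of the 43 histone islands (41.9%), against 62.5% of all islands. It gave a fold below 1 to 10 of them (23.3%), against 10.2% of all islands. Genes with an island of FDR 0.05 or less numbered 28 of 71 (39.4%), against 31.6% of all protein-coding genes. A two-sided exact conditional binomial test of peak against control reads, which unlike the authors' p-value carries the counting error of the control reads, called fewer. None of the 43 histone islands passed it after Benjamini-Hochberg adjustment over all islands, against 0.374% of all islands, and 4 had an unadjusted p under 0.05, against 18.5%. With reads summed per gene, 3 of the 56 histone genes with an island passed, against 6.71% of all protein-coding genes with an island, and 7 had an unadjusted p under 0.05, against 23.5%. These 7 genes were H4c9, H2ac11 and H2bc11 in a shared island, H2ac21, H2ac20 and H2bc21 in another, and H1f3. The fold of H1f3, whose island is also among the 4 above, was below 1 (0.553). These tests compare the 2 libraries and say nothing of the spread between animals.

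**Figure D3:**
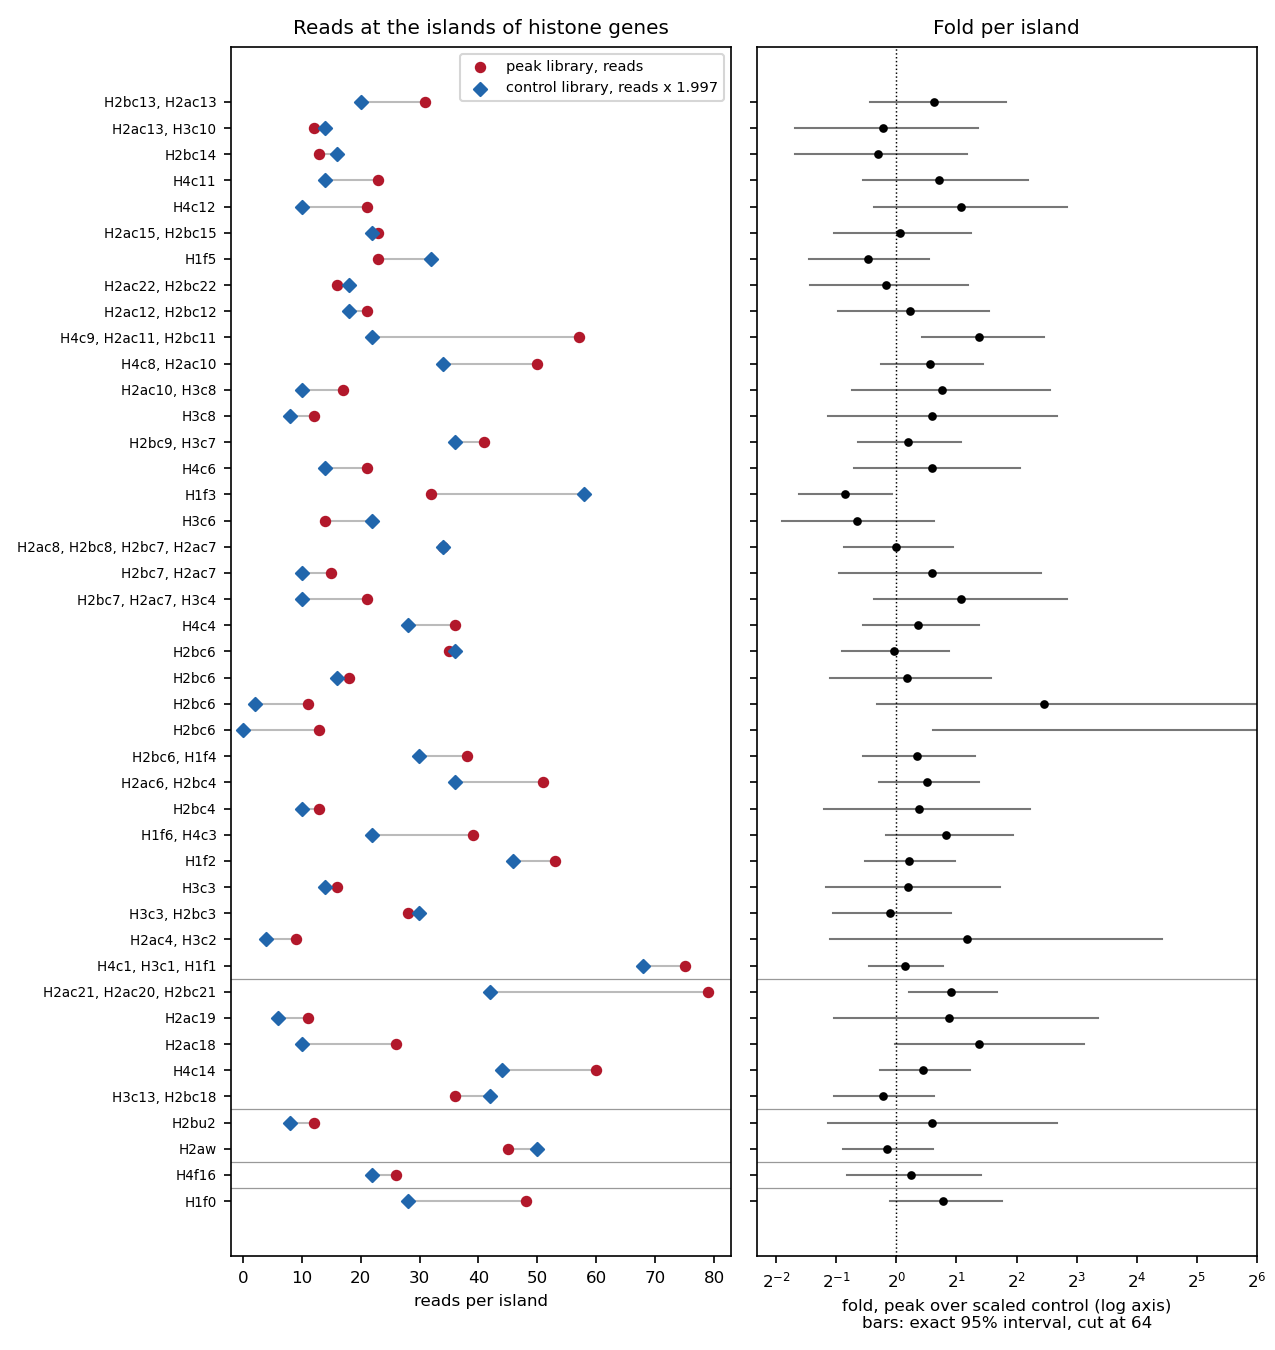
Left, reads in each of the 43 histone islands in the peak library (red circles) and in the control library after scaling by 1.997 (blue diamonds), named by their histone genes in chromosomal order, with lines between chromosomes 13, 3, 11, 6 and 15. Right, the fold with its exact 95% interval on a log axis, cut at 64. H2ac21, H2ac20 and H2bc21 share the island with the most peak-library reads (79), and H1f3 has the lowest fold (0.553). All folds fall by 0.36 on the log2 scale with equal totals of all islands.

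Genes of H2A and H2B, which pair as a dimer in the nucleosome, often lie head to head, and their islands often covered the space between them. There were 12 neighbouring H2A–H2B pairs with gaps of 163 to 280 bp, and the 10 pairs whose strands are both known were all divergent. In 9 of the 12 pairs an island covered the gap and overlapped both genes. The pairs without an island were H2bc23 with H2ac23, H2ac24 with H4bc24 (an H2B gene by its older name Hist1h2br), and the testis genes H2bc1 with H2ac1. Pooled over islands, H2A genes had 518 peak-library and 180 control-library reads, a fold of 1.44 (1.21 to 1.72). H2B genes had 606 peak-library and 229 control-library reads, a fold of 1.33 (1.14 to 1.55), and many of these reads are the same as those of H2A.

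The pair H2ac11 and H2bc11 shared a 4200 bp island on chromosome 13 (22040201 to 22044400) with H4c9, an H4 gene. It held 57 reads in the peak library and 11 in the control library, a fold of 2.60 (1.35 to 5.49). The authors' deposited table gave it an FDR of 1.69e-09. Its adjusted p was 0.114 as an island and 0.0352 for each of the 3 genes by the exact conditional binomial test, so the 3 gene calls are a single island counted under 3 names. With equal totals of all islands no histone gene passed, and the lowest adjusted p by that exact test was 0.0992. The 248 bp between H2ac11 and H2bc11, printed above, lay inside the island and hold the CCAAT letters on both strands but neither CTTTGA, the octamer ATTTGCAT nor TATAAA.

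On chromosome 3, H2ac20 and H2bc21 are separated by 191 bp and shared a 3600 bp island (96218601 to 96222200) with H2ac21. It held 79 peak-library and 21 control-library reads, the most peak-library reads of any histone island, and had a fold of 1.88 (1.15 to 3.21). The FDR in the authors' deposited table was 7.67e-07, and the adjusted p of the exact conditional binomial test was 0.16 as an island and 0.0794 per gene. The gap printed above holds the TCF/LEF core on the minus strand of that sequence, the CCAAT letters and TATAAA. The remaining H2A genes of that cluster, H2ac18 and H2ac19, are near-copies of each other. H2ac18 had 26 peak-library and 5 control-library reads, a fold of 2.60 (0.984 to 8.68), and H2ac19 had 11 peak-library and 3 control-library reads, a fold of 1.84 (0.485 to 10.3).

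Other H2A–H2B pairs stood closer to the scaled control. The island of H2ac6 and H2bc4 held 51 peak-library and 18 control-library reads, a fold of 1.42 (0.815 to 2.58). That of H2bc13 and H2ac13 held 31 peak-library and 10 control-library reads, a fold of 1.55 (0.742 to 3.55). An island over H2ac8 and H2bc8 held 34 peak-library and 17 control-library reads, a fold of 1.00 (0.544 to 1.91), and reached into the flanks of the next pair, H2bc7 and H2ac7. That next pair had 3 islands with 70 peak-library and 27 control-library reads in all, a fold of 1.30 (0.822 to 2.11). Of these, the island over the pair itself held 15 peak-library and 5 control-library reads. The others were the island over H2ac8 and H2bc8 and an island over H3c4 of 21 peak-library and 5 control-library reads. The pairs H2ac15 with H2bc15, H2ac12 with H2bc12 and H2ac22 with H2bc22 had 23, 21 and 16 peak-library reads against 11, 9 and 9 control-library reads. H2ac10, an H2A gene without an H2B neighbour, had 67 peak-library and 22 control-library reads over its 2 islands, a fold of 1.53 (0.930 to 2.59). Of these, 50 peak-library and 17 control-library reads lay in the island over the start of H4c8, which ended 875 bp before H2ac10. The island over H2ac10 itself held 17 peak-library and 5 control-library reads. The intervals of all islands and genes in this group include 1.

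H2bu2 (H2B) and H2aw (H2A) make up the chromosome 11 cluster. H2aw had 45 peak-library and 25 control-library reads, a fold of 0.901 (0.541 to 1.53), and H2bu2 had 12 peak-library and 4 control-library reads, a fold of 1.50 (0.455 to 6.39). Together they stood at 0.984 (0.619 to 1.60), and neither island had an FDR of 0.05 or less in the authors' deposited table. Among H2B genes without an H2A partner in an island, H2bc3 shared 28 peak-library and 15 control-library reads with H3c3, a fold of 0.935 (0.483 to 1.88). H2bc18 shared 36 peak-library and 21 control-library reads with H3c13 on chromosome 3, a fold of 0.859 (0.488 to 1.55). H2bc14 had 13 peak-library and 8 control-library reads, a fold of 0.814 (0.313 to 2.26).

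H2bc6 had the most reads of any histone gene and also the longest RefSeq gene model, 37455 bp, where the median histone gene has 496 bp. Its 5 islands held 115 peak-library and 42 control-library reads, a fold of 1.37 (0.955 to 2.00). They were uneven along the model. RefSeq lists 2 starts for it. The island over the start near the end of the model held 35 peak-library and 18 control-library reads (fold 0.974), and that over the far start, shared with H1f4, held 38 peak-library and 15 control-library reads (fold 1.27). Between them lay an island of 18 peak-library and 8 control-library reads, another of 11 peak-library reads and 1 control-library read, and an island of 13 peak-library reads and no control-library read on chromosome 13, 23619001 to 23620400. Against a floor of 3 control reads, and with its peak-library reads taken as known, that island was at least 2.17-fold higher in the peak library. With the counting error of both libraries the exact 95% lower bound was less, 1.53. Its adjusted p was 0.156 by the exact conditional binomial test.

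H4 genes, whose protein pairs with H3 at the centre of the nucleosome, had with H2A the highest pooled folds of the 5 classes, though the intervals of the classes overlap. Their 10 islands held 408 peak-library and 139 control-library reads, a pooled fold of 1.47 (1.21 to 1.80). None had a fold below 1, against 10.2% of all islands, and 7 (70%) had an FDR of 0.05 or less in the authors' deposited table, against 62.5% of all islands. Both counts lay near those of the whole table. The 6 islands that lay at H4 genes alone gave 1.42 (1.07 to 1.91). H4c14 on chromosome 3 had 60 peak-library and 22 control-library reads, a fold of 1.37 (0.826 to 2.34). H4c8, in an island shared with H2ac10, had 50 peak-library and 17 control-library reads, a fold of 1.47 (0.835 to 2.72).

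H4c3 shared 39 peak-library and 11 control-library reads with the flank of the testis gene H1f6, a fold of 1.78 (0.892 to 3.84). That island began 1190 bp after the start of H1f6 and covered the start of H4c3, so it lies at H4c3 by position. H4c4 had 36 peak-library and 14 control-library reads, H4c11 had 23 peak-library and 7 control-library reads, H4c12 had 21 peak-library and 5 control-library reads, and H4c6 had 21 peak-library and 7 control-library reads, with folds of 1.29, 1.65, 2.10 and 1.50. H4f16, the lone gene of chromosome 6, had 26 peak-library and 11 control-library reads, a fold of 1.18 (0.565 to 2.65).

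Islands assigned to H3 genes by the 1 kb rule stood close to the scaled control. At H3c2, H3c3, H3c6 and H3c8 the islands lay only in the flank, some of them over another histone gene. The pooled value is therefore not that of H3 gene bodies alone. The 11 islands assigned to H3 genes held 281 peak-library and 129 control-library reads, a pooled fold of 1.09 (0.883 to 1.35). Of the 11, 4 had a fold below 1. With equal totals of all islands the pooled fold was 0.852. H3c1 lay with H4c1 and H1f1 in the widest histone island of chromosome 13, 4600 bp with 75 peak-library and 34 control-library reads and a fold of 1.1 (0.727 to 1.71). H3c7, shared with H2bc9, had 41 peak-library and 18 control-library reads, a fold of 1.14 (0.641 to 2.11). H3c4 had 21 peak-library and 5 control-library reads, a fold of 2.10 (0.772 to 7.14), and H3c6 had 14 peak-library and 11 control-library reads, a fold of 0.637 (0.269 to 1.55). H3c3 had 44 peak-library and 22 control-library reads over its 2 islands, a fold of 1.00 (0.588 to 1.75). The intervals of all of these H3 islands include 1. Of the other H3 genes with an island, H3c8 had 29 peak-library and 9 control-library reads over 2 islands. The larger of these, with 17 peak-library and 5 control-library reads, lay over the start of H2ac10. H3c10 had 12 peak-library and 7 control-library reads, and H3c2 shared 9 peak-library and 2 control-library reads with H2ac4.

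H1 genes, which encode the linker histones, stood close to the scaled control in the chromosome 13 cluster. The 6 islands with an H1 gene of the chromosome 13 cluster held 260 peak-library and 128 control-library reads, a pooled fold of 1.02 (0.820 to 1.27), although all 6 H1 genes there had an island. H1f3 had 32 reads in the peak library and 29 in the control library, a fold of 0.553 (0.324 to 0.947); in unscaled reads the peak library was the higher. Its control-library density of 9.67 reads per kb was the highest of the 43 islands, and its adjusted p was 0.213 by the exact conditional binomial test. H1f5 had 23 peak-library and 16 control-library reads, a fold of 0.720 (0.364 to 1.46), and H1f2 had 53 peak-library and 23 control-library reads, a fold of 1.15 (0.695 to 1.97). H1f4 had 38 peak-library and 15 control-library reads, a fold of 1.27, in the island shared with H2bc6.

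H1f0, the replication-independent H1 gene on chromosome 15, had a higher fold than the clustered H1 genes as a group. It had 48 peak-library and 14 control-library reads in a 4200 bp island, a fold of 1.72 (0.931 to 3.37). That interval overlaps the 0.820 to 1.27 of the clustered H1 genes, and the difference was not tested. The testis gene H1f7, the oocyte gene H1f8 and the broadly expressed gene H1f10 had no island.

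The classes overlapped in their intervals. With equal totals of all islands their pooled folds were 0.849 for H1, 1.13 for H2A, 1.04 for H2B, 0.852 for H3 and 1.15 for H4. H2A (1.21 to 1.72) and H4 (1.21 to 1.80) had lower bounds above the pooled values of H1 (1.09) and H3 (1.09), but the intervals of H1 and H3 reached 1.33 and 1.35. Many islands hold genes of several classes, so the class values share reads and no test between classes was made. Among the clusters, chromosome 3 had a pooled fold of 1.47 (1.12 to 1.95) from 212 peak-library and 72 control-library reads in 5 islands. Chromosome 13 had 1.22 (1.08 to 1.38) from 932 peak-library and 382 control-library reads in 34 islands.

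Along chromosome 13 the genes fall into 4 blocks separated by more than 100 kb, and the blocks differed in how many genes had an island. The second block, 22035122 to 22043658, is 8.54 kb long, and all 5 of its genes had an island. Its reads were 78 in the peak library and 20 in the control library, a fold of 1.95 (1.18 to 3.37), most of them from the island of H2ac11, H2bc11 and H4c9. The third block, 23531044 to 23764412, had an island at 28 of 29 genes, with 692 peak-library and 289 control-library reads and a fold of 1.20 (1.04 to 1.38); H4c2 was the exception. The first block, 21715711 to 21837530, had an island at 11 of 18 genes, with 162 peak-library and 73 control-library reads and a fold of 1.11 (0.838 to 1.49). The fourth block holds the testis genes H2bc1 and H2ac1 and had none.

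Within the first block the genes without an island were H3c11 and 6 neighbours at its far end: H2bc23, H2ac23, H4c17, H4c18, H2ac24 and H4bc24. These 6 lie in a mirrored arrangement whose promoters share long runs of bases. The promoters of H4c17 and H4c18 share a run of 285 bases in a window of 300, as the sequences above show in part, those of H2bc23 and H4bc24 share all 300, H2ac23 shares 267 and H2ac24 shares 233. On chromosome 3, H3c14 and H3c15 share 231 bases and had no island either.

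Over the 66 histone genes with a promoter sequence, 12 had a promoter that shares a run of 50 or more bases with that of another gene, and 4 of these 12 had an island (33.3%). Of the 54 without such a run, 47 had an island (87.0%). The 4 copies with an island were H4c11 and H4c12, which share 72 bases, and H2ac18 and H2ac19, which share 219. A read from sequence present in more than 1 place cannot be placed uniquely, and how such reads were treated is not given in the sources used here; their part in the missing islands was not tested. The 7 genes without an island and without such a run were H3c11, H4c2, H2bc1, H2ac1, H1f7, H1f8 and H1f10.

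**Figure D4:**
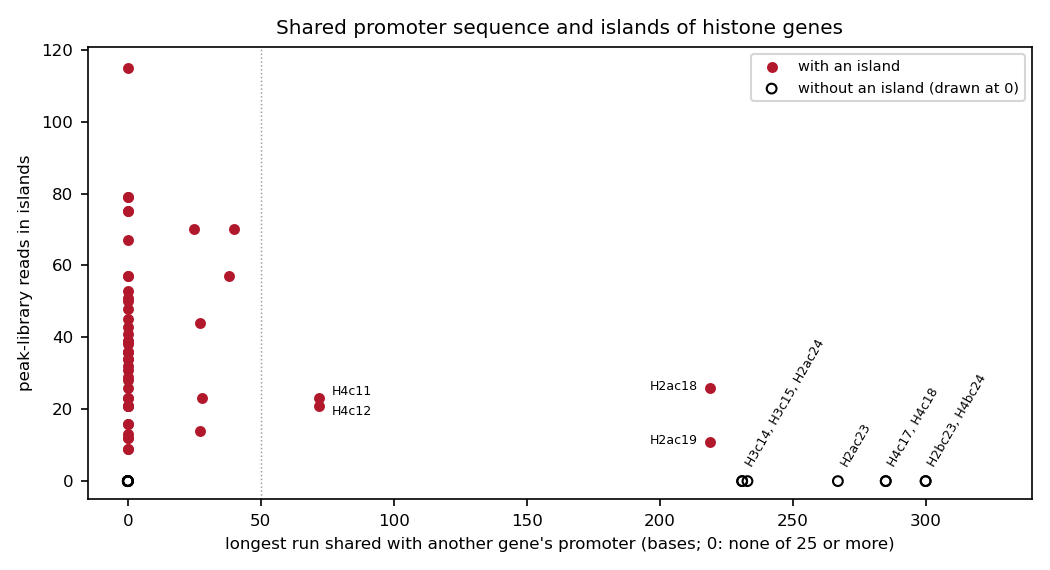
Longest run of bases that the promoter of each histone gene shares with the promoter of another gene (x axis, bases; runs under 25 drawn at 0) against the peak-library reads in its islands (y axis), filled where the gene has an island and open where it has none. Right of the dotted line at 50 bases, 4 genes have an island and 8 do not.

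The islands lay over gene starts. Of the 51 histone genes with both an island and a known start, 45 had an island that covered the start (88.2%). The share was 6584 of 8393 among other protein-coding genes (78.4%). Histone genes have a median length of 496 bp against 17169 bp for all protein-coding genes, so the 1 kb rule keeps their islands near the start. These shares are therefore not like for like, and the rule also limits the position that follows. Over the 61 pairs of gene start and island with centres within 5 kb, the median centre lay 66.5 bp after the start. The quartiles were at -680.5 and 482.5 bp. An island over a divergent pair enters once per gene and can have opposite signs, as at H2bc13 (482.5 bp) and H2ac13 (-711.5 bp). Such entries draw the median towards the start. The starts without cover were those of H1f5, H1f6, H3c2, H3c3, H3c6 and H3c8, so 4 of the 6 are H3 genes. The nearest island ended 16 bp before the start of H3c6, 18 bp before that of H3c8 and 80 bp before that of H3c3. These distances are less than 200 bp, the step of the island widths. At H1f5 the nearest island began 225 bp after the start.

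**Figure D5:**
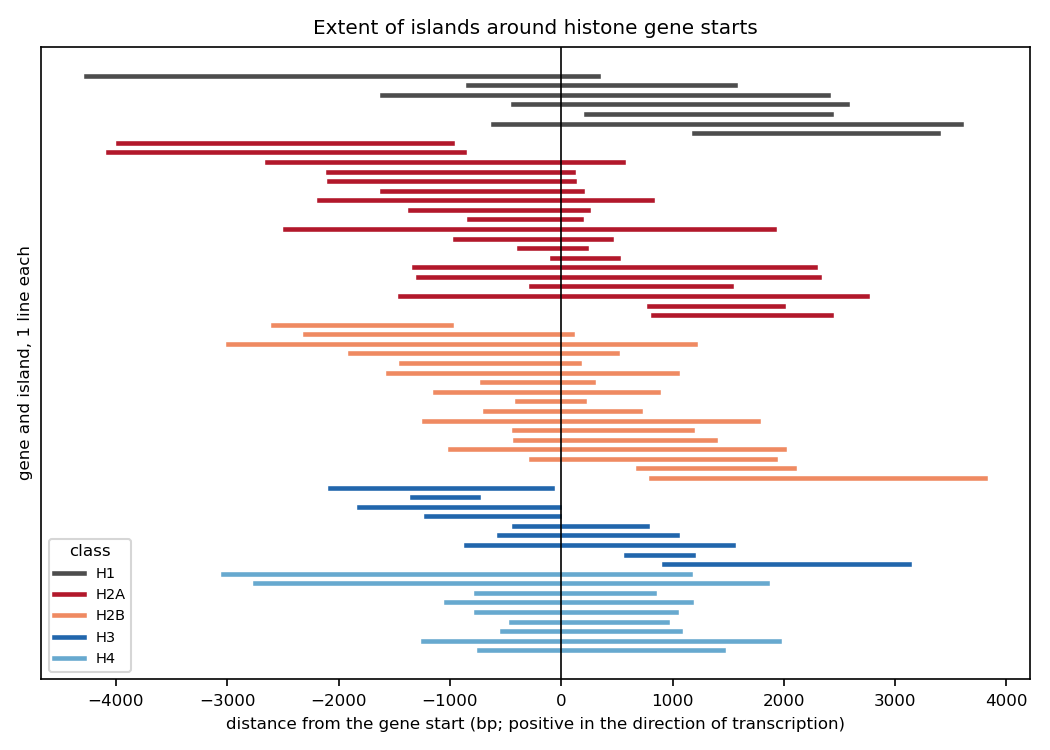
Extent of each island relative to the start of its histone gene (x axis, bp, positive in the direction of transcription), 1 line for each pair of gene and island, coloured by class and sorted by the island's centre. The islands span the start for 45 of 51 genes. The median centre over the 61 pairs within 5 kb lies 66.5 bp after the start, and an island over several genes enters once for each.

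The 1 kb flank mattered for some genes. With the gene body alone, 51 of the 71 genes had an island, against 45.7% of all protein-coding genes. Those with islands only in the flank were H1f6, H3c2, H3c3, H3c6 and H3c8, most of them H3 genes. The islands assigned from farthest away lay 994 bp from H2bc7, 981 bp from H2ac7 and 875 bp from H2ac10, and each lies over another histone gene. The nearest islands left out lay 2770 bp from H4f16 (34 peak-library and 8 control-library reads), 3644 bp from H4c8 (33 peak-library and 14 control-library reads) and 3911 bp from H2bc13 (30 peak-library and 10 control-library reads). The first of these is the island of H2aj, a replication-independent H2A gene.

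Histone promoters were searched for 5 motifs on both strands of the 300 bases around each start, 250 before and 50 after, in 67 windows of the 66 genes. CTTTGA, the TCF/LEF core, was in 8 of the 67 windows (11.9%), against 16% of all 32851 promoters in the same table. Among these were H2ac20, H2ac7, H2bc7, H2bc9, H2bc3, H3c2 and H2aw, which had an island, and H1f7, which had none. CCAAT, the letters bound by NF-Y, was in 55 (82.1%) against 37.4%, and was present in all H2A, H2B and H3 windows but in 3 of 12 H4 windows. ATTTGCAT, the octamer bound by POU factors such as the product of Pou2f1, was in 14 (20.9%) against 1.74%, 7 of them at H2A and 7 at H2B genes. TATAAA was in 35 (52.2%) against 13.6%. GGTCCG, part of an element known from H4 promoters, was in 14 (20.9%) against 8.25%, and in 11 of the 12 H4 windows. The windows of divergent H2A–H2B pairs overlap, so a single site can be counted at both genes. This may hold for the octamer at H2ac12 with H2bc12, H2ac8 with H2bc8 and H2bc1 with H2ac1, and for CTTTGA at H2ac7 with H2bc7. The windows of H2bc23 and H4bc24 have the same bases, so the 67 windows are not independent sequences. None of the 5 motifs contains another, and a match describes the sequence and not a bound site.

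Genes that work with the replication-dependent histones were taken from 3 lists. Of 11 replication-independent histone genes, 9 had an island and 7 an island with an FDR of 0.05 or less in the authors' deposited table, against 47.5% and 31.6% of all protein-coding genes. Their 335 peak-library and 129 control-library reads pooled to a fold of 1.30 (1.06 to 1.61), beside 1.26 for the 43 islands above; H1f0 and H1f10 are in both groups. H3f3b, which encodes the replacement histone H3.3, had 53 peak-library and 25 control-library reads, a fold of 1.06 (0.648 to 1.78). H2az1, which encodes H2A.Z, had 50 peak-library and 17 control-library reads, a fold of 1.47 (0.835 to 2.72). Macroh2a2 had no island.

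Of 22 genes for histone mRNA processing and histone gene transcription, 21 had an island and 13 an island with an FDR of 0.05 or less in the authors' deposited table, beside the same 47.5% and 31.6% of all genes. Their 844 peak-library and 289 control-library reads gave a pooled fold of 1.46 (1.28 to 1.68). Pou2f1, whose product binds the octamer, had 110 peak-library and 41 control-library reads, a fold of 1.34 (0.931 to 1.97). Nfyc and Nfya encode subunits of the CCAAT-binding factor NF-Y. Nfyc had 90 peak-library and 27 control-library reads, a fold of 1.67 (1.08 to 2.67), and Nfya had 84 peak-library and 32 control-library reads, a fold of 1.31 (0.865 to 2.04). Lsm11, which encodes a subunit of the particle that processes histone mRNA ends, had no island.

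Of 17 histone chaperone genes, 16 had an island and 7 an island with an FDR of 0.05 or less in the authors' deposited table. Over all protein-coding genes the shares were 47.5% and 31.6%, so the second count lay near the background. Their 762 peak-library and 293 control-library reads gave a pooled fold of 1.30 (1.14 to 1.50). Hjurp, the chaperone of the centromeric histone CENP-A, had 210 peak-library and 84 control-library reads, a fold of 1.25. Daxx, a chaperone of H3.3, had 76 peak-library and 25 control-library reads, a fold of 1.52. Asf1b, a chaperone of H3 and H4, had 68 peak-library and 16 control-library reads, a fold of 2.13 (1.22 to 3.93). Atrx, the partner of Daxx, had no island. No gene of these 3 lists passed the exact conditional binomial test after adjustment over all genes with an island; the lowest adjusted p was 0.0604 at Ccne2.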

How the data were processed

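The authors deposited read counts per island, 1 whole number for a peak library and 1 for a control library per the file headers, unscaled and with no sample names. The fold (a ratio) and the p-value and FDR of each island were also deposited by the authors. The submitters' processing notes name Bowtie2 2.4.2, SICER 2.0 and the mm10 build. For caller settings and for duplicate or multiply placed reads, the treatment is not given in the sources used here. Because the columns name no sample, the planned comparison of Tcf7fl/fl-VavCre with Tcf7+/+ was not made. Depth per sample is known only as reads in islands.

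Island positions, counted from 0 in the table, were given from 1. Reads were summed over islands, each counted once per sum, and folds used the library factor 1.997 from the authors' fold column. Intervals are exact conditional binomial (Clopper-Pearson) 95% intervals, and p-values come from the two-sided exact conditional binomial test. Benjamini-Hochberg adjustment was over all 19531 islands or all 10395 protein-coding genes with an island. The test was also run on counts simulated from the same binomial model. That run checks the calculation and not whether the model holds for these data. Python 3.11.15 and scipy 1.17.1 were used. Gene positions and promoters came from RefSeq tables of GRCm38.p6, in which 66 of the 71 genes had a promoter and strand; a protein table was not used here, so the planned protein comparison was not run.

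The histone genes, the gene lists and the alternatives were chosen with earlier results of these data known. The rule for named genes takes every histone gene outside the chromosome 13 cluster. In that cluster it takes the 10 genes with the most peak-library reads, the 5 highest and 5 lowest folds among genes with at least 20 peak-library reads, and the first 2 genes without an island. Of the other lists it takes up to 3 genes with the most peak-library reads and the first 2 without an island. The remaining histone genes are named to account for all of them; Ccne2 and the 4 promoter copies that had an island were singled out after their values were seen.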

Additional observations from a re-analysis of the deposited data

How the results depend on the processing

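The alternatives gave 80 values on the same side and within set limits, 20 that moved, 15 that reversed, 4 that came past the test and 4 that no longer passed it. The limits were a range around the main value for counts, medians and shares, and an exact-test p of 0.05 for pooled folds. Some of the 80 could hardly differ. No histone island had more than 79 peak-library reads, so leaving out islands of 200 or more changed no histone value. Asking for an overlap of at least 200 bp changed none either. Scaling changed the direction of pooled folds. With equal totals of all islands the fold was 0.982 over all histone islands, 0.955 for chromosome 13, 0.925 for chromosome 6, 0.849 for H1 and 0.852 for H3, and the excess was no longer past the test for chromosome 3 (1.15), H2A (1.13), H2B (1.04) and H4 (1.15); the median fold was 1.02. With raw reads it was 1.97 for chromosome 11, 2.36 for chromosome 6, 2.17 for H1 and 2.18 for H3, and the median 2.60. With equal totals of nuclear islands under 200 peak-library reads, an alternative chosen after the data were seen, it was 0.775 over all, 0.754 for chromosome 13, 0.910 for chromosome 3, 0.607 for chromosome 11, 0.730 for chromosome 6, 0.670 for H1, 0.889 for H2A, 0.818 for H2B, 0.673 for H3 and 0.907 for H4. These scalings shift all log2 folds by -0.36, 1.00 and -0.70. With equal totals the exact test called 0 histone genes against 3, 100 genes against 698 and 29 islands against 73. Islands with an FDR of 0.05 or less left 28 histone genes and 18 islands with a median fold of 1.81; an FDR of 1e-05 or less left 7 genes and 4 islands, 4 of them past 0.05, with a median of 4.05. At least 20 peak-library reads left 28 islands, and leaving out chromosome 13 left 12 genes and 9 islands, 5 of them with an FDR of 0.05 or less. The share of all protein-coding genes with an island was 45.7% for the gene body alone, 51.1% with 5 kb and 54.7% with 10 kb on either side, 31.6% at an FDR of 0.05 or less, 11.4% at 1e-05 or less and 27.2% at 20 reads or more. The other 3 added alternatives were also chosen after the data were seen (current symbols alone, promoters with long shared runs left out, H2bc6 left out). With 1 library per group no replicate could be left out. No paired analysis was possible because each group has 1 library and the columns carry no replicate number. The depth of 23 peak-library and 11 control-library reads in the median histone island leaves wide intervals for single islands.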

Other observations

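The chromosome 13 histone span is also rich in tRNA genes, short genes read by RNA polymerase III, and many of its islands lay at these and not at histone genes. Of the 61 islands in the span, 34 were at histone genes, 20 more lay within 1 kb of a tRNA gene, 5 at other protein-coding genes and 2 at neither. The 20 tRNA islands held 535 peak-library and 212 control-library reads, a pooled fold of 1.26 (exact 95% interval 1.08 to 1.49), and the 34 histone islands 932 peak-library and 382 control-library reads, a fold of 1.22 (1.08 to 1.38). Outside the span, 98 tRNA islands of under 200 reads in the peak library had a fold of 1.32 (1.24 to 1.41). An island lay at 36 of 77 tRNA genes in the span (46.8%) and at 161 of 331 in the rest of the genome (48.6%). With equal totals of all islands all of these folds are lower by 0.36 on the log2 scale.

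The tRNA island with the most peak-library reads in the span, 50 peak-library and 29 control-library reads, had a fold of 0.863 (0.536 to 1.42) and lay near 3 tRNA genes on chromosome 13, 23429801 to 23433600. The island next to the block of H2ac11, H2bc11 and H4c9, 4943 bp from H2bc11 at a tRNA gene, held 48 peak-library and 9 control-library reads, a fold of 2.67 (1.30 to 6.19). These 2 islands were chosen after their values were seen.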
